A study of Homo sapiens with 16 samples.

Results

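The 4 FGF receptor genes FGFR1, FGFR2, FGFR3 and FGFR4 and the mitotic spindle gene TACC3 were followed in bladder cancer cells given the HDAC inhibitor CM-1758. They were taken by symbol, 5 of 35993 gene symbols in the table of counts, by a rule that holds no measured value although earlier results of these data were known, and 5 of 5 passed the filter on low counts that left 21297 genes for testing. The cell lines 253J, J82, RT112 and TCCSUP are established human bladder cancer lines, with the genotype WT in the labels. Cells received CM-1758 for 48 h at the IC50 of their own line (the concentration that cuts the measured response to the middle of its range), so that the dose differed between lines, or no drug, with 2 libraries in each of 8 groups and 16 in all. The cultures without drug, called control here, are vehicle controls in the labels, while a legend of the study calls them untreated. The cultures of 253J, J82 and RT112 were kept in DMEM and those of TCCSUP in EMEM, so that medium and cell line cannot be told apart for TCCSUP. A cell line is 1 culture lineage, and the study describes the libraries of a group as independent biological replicates, so the spread below is that between cultures of 1 line.

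FGF receptors are receptor tyrosine kinases of the cell surface. A bound FGF ligand, held by heparan sulphate proteoglycans, pairs the receptors, which then signal through the adaptor FRS2 to the RAS-MAPK and PI3K pathways, and the output is held back by feedback inhibitors such as the dual-specificity phosphatases and Sprouty proteins. FGFR3 is the member best known in the urothelium, where it is often mutated or overexpressed in papillary bladder tumours. TACC3 encodes a coiled-coil protein that holds spindle microtubules together with CKAP5 and clathrin, and its gene lies next to FGFR3 on the short arm of chromosome 4. RT112 is known for a tandem rearrangement there that joins the kinase part of FGFR3 to the coiled coil of TACC3. Reads counted per gene do not tell fused from ordinary transcripts, so the FGFR3 and TACC3 counts of RT112 may hold both. RefSeq lists 6 pseudogenes of FGFR3, of which 0 have a row in the table, so reads from them, if any, could have been counted on FGFR3.

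The starts of FGFR3 and TACC3 are shown because a fused transcript is read from the start of FGFR3, and that of FGFR4 because its count rose from near 0 in a pair of lines. Each is 300 bases of RefSeq's GRCh38.p14 from 250 before to 50 after the gene's start, 5′ to 3′ on the gene's strand, in lower case with GC boxes (GGGCGG on either strand, neighbours may overlap) in capitals. The coordinates are those of GRCh38.p14, while the processing notes of the submitters name GRCh37 for the counts. Of the 5 members, 4 were matched in the promoter table, and the first listed start of each is used.
FGFR3, chr4:1793043-1793342, plus strand: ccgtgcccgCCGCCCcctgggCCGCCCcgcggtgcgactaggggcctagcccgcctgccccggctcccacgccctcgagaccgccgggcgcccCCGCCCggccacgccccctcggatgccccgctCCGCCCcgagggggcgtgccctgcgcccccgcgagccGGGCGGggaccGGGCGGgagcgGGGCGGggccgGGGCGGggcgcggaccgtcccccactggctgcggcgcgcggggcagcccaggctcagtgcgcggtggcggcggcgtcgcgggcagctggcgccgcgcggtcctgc
TACC3, chr4:1720381-1720680, plus strand: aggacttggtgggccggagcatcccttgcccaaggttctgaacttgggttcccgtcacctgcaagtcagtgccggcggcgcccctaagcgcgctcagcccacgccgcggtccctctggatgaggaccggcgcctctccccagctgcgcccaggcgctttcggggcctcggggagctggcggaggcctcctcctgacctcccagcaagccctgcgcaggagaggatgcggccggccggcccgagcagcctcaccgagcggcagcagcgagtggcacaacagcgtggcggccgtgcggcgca
FGFR4, chr5:177086665-177086964, plus strand: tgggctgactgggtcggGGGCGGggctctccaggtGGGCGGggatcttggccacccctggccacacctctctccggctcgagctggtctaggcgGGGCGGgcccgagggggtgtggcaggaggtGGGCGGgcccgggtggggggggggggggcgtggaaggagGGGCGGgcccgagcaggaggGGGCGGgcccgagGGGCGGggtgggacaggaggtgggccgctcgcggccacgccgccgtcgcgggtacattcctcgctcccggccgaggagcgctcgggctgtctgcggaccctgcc
The FGFR3 window was 86.3% G or C with 51 CpG dinucleotides and 8 GC box matches. The FGFR4 window was 78.7% G or C with 30 CpG dinucleotides and 7 GC box matches. The window of another listed FGFR4 start, not shown, was 57.3% G or C with 2 CpG dinucleotides and 0 GC box matches. The TACC3 window was 72.0% G or C with 30 CpG dinucleotides and 0 GC box matches. Across 35116 promoter windows of 27305 symbols the median was 58.7% G or C with 14 CpG dinucleotides, and 44.95% held a GC box match. The letters TTTGAA of the CHR motif, known from promoters of mitotic genes, were searched on either strand and were in none of the 3 windows shown, against 15.2% of all windows. These matches describe the letters of the windows.

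Total counts ran from 22506431 to 32537104 per library, and replicate libraries correlated at a Pearson's r of 0.983 to 0.991 in log2 CPM over the tested genes. CPM is the usual count relative to library size, here after TMM normalization, and means are given ± SD with n = 2. Unless said otherwise, log2 fold changes, their standard errors (SE) and p-values come from 1 edgeR quasi-likelihood fit over the 16 libraries with Benjamini-Hochberg adjustment over all tested genes, and called means an adjusted p under 0.01. Scaling by library size alone would raise the median log2 fold change of all genes by 0.31 in TCCSUP, 0.27 in 253J and 0.15 in both RT112 and J82. Epithelial and urothelial markers were found in every line, with 8 to 12 of 12 above 3 counts in both control libraries, while KRT5 and UPK2 were at 0 in the controls of 253J and J82, KRT17 in those of 253J and UPK2 in those of TCCSUP. Leukocyte markers summed to at most 20.9 CPM and endothelial markers to at most 4.93 CPM in the controls. Fibroblast markers summed to 1335 to 1367 CPM in RT112 and 2250 to 2346 CPM in TCCSUP controls, against at most 70.3 CPM in the other two lines, and were at 836 to 906 CPM and 311 to 346 CPM with CM-1758. Of these 4 markers 2 were above 3 counts in the RT112 controls, with PDGFRA at 0, and 4 in the TCCSUP controls. Although the sum fell in RT112, 3 of the 4 were called higher there and 0 lower, against 20.0% and 14.7% of tested genes. In TCCSUP 0 were called higher and 3 lower, against 23.7% and 17.2%. It was 0 and 1 in 253J (21.4% and 18.1%) and 3 and 0 in J82 (17.4% and 13.3%). The part of these markers in the results was not tested. In these bulk libraries fewer cells with a transcript and less of it per cell cannot be told apart.

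FGFR3 was far higher in RT112 than in the other lines. The control libraries of RT112 held 829 and 807 CPM of FGFR3, from 25358 and 23825 counts, those of J82 13.4 and 12.1 CPM, those of 253J 7.78 and 9.23 CPM and those of TCCSUP 1.58 and 2.37 CPM. No control group overlapped another, and each step of that order was called, with log2 differences of 6.001 ± 0.19 (SE) between RT112 and J82 (adjusted p = 4.53e-12), 0.59 ± 0.16 between J82 and 253J (adjusted p = 6.56e-03) and 2.10 ± 0.19 between 253J and TCCSUP (adjusted p = 2.23e-07). The middle step, between J82 and 253J, was lost under several alternatives, with adjusted p = 0.0189 under RLE normalization. It was also lost when any 1 control library of these lines was left out.

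With CM-1758 the FGFR3 level moved in opposite directions. The treated RT112 libraries held 441 and 374 CPM, below both controls, a mean of 407 ± 47.7 against 818 ± 15.3 CPM and a log2 fold change of −1.01 ± 0.15 (adjusted p = 6.85e-05). The treated J82 libraries held 53.2 and 50.1 CPM, above both controls, a log2 fold change of 2.02 ± 0.16 (adjusted p = 2.61e-07). The treated TCCSUP libraries held 24.1 and 22.9 CPM, both above the control mean of 1.98 ± 0.559 CPM by a wide margin, 11.8 times in pooled counts, with a log2 fold change of 3.56 ± 0.19 (adjusted p = 3.82e-09). In 253J the treated libraries, at 8.32 and 8.50 CPM, lay between the controls, and the log2 fold change was −0.02 ± 0.17 (adjusted p = 0.999). Its sign turned under RLE normalization, library size alone, a stricter filter and DESeq2 on all lines, and was kept in DESeq2 on 253J alone (−0.014). The effect in RT112 lay below that in each other line, by 0.99 on the log2 scale from 253J (adjusted p = 3.39e-03), by 3.02 from J82 (adjusted p = 3.33e-07) and by 4.57 from TCCSUP (adjusted p = 1.28e-08).

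**Figure D1:**
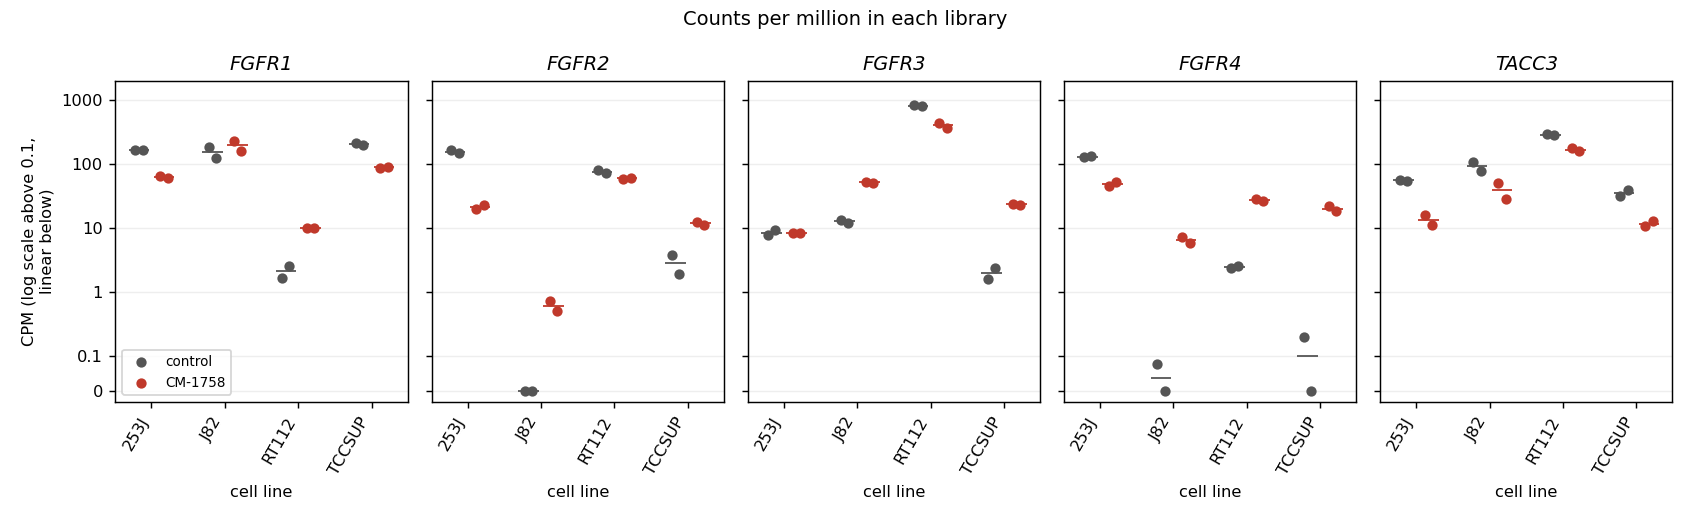
CPM (vertical axis, logarithmic above 0.1 and linear below) of each gene in the 16 libraries, by cell line (horizontal axis), with grey points for control, red points for CM-1758 and bars for the mean of 2 libraries. FGFR3 of RT112 stands at 829 and 807 CPM in control and 441 and 374 CPM with CM-1758, above every library of the other lines, and FGFR4 rises from near 0 in J82 and TCCSUP.

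FGFR1, the receptor most often linked to mesenchymal cells, showed nearly the reverse distribution. Controls held 167 and 165 CPM in 253J, 187 and 126 CPM in J82, 215 and 202 CPM in TCCSUP and 1.67 and 2.57 CPM in RT112. Levels in 253J, J82 and TCCSUP were not called apart, although both TCCSUP controls lay above both 253J controls, with adjusted p of 0.783 for 253J and J82, 0.180 for 253J and TCCSUP and 0.0997 for J82 and TCCSUP. RT112, from 51 and 76 counts, lay lower than J82 by 6.20, than 253J by 6.29 and than TCCSUP by 6.62 on the log2 scale (adjusted p at most 6.69e-11).

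CM-1758 lowered FGFR1 in a pair of lines where it was high and raised it where it was low. In 253J the treated libraries held 64.2 and 60.6 CPM, both below the controls, a log2 fold change of −1.41 ± 0.20 (SE; adjusted p = 3.95e-05). In TCCSUP they held 87.9 and 89.9 CPM, again below both controls, a log2 fold change of −1.23 ± 0.20 (adjusted p = 1.36e-04). In RT112 they held 10.0 and 9.87 CPM, above both controls, a log2 fold change of 2.23 ± 0.25 (adjusted p = 5.59e-06). J82 libraries spread widely, at 234 and 159 CPM with CM-1758, overlapped with their controls and gave a log2 fold change of 0.33 ± 0.20 (adjusted p = 0.203). Of 6 mesenchymal markers, among them VIM, CDH2 and FN1, 6 were called higher in RT112, where their summed level went from 885 to 958 CPM in control to 1602 to 1650 CPM with CM-1758 and TWIST1 was at 0 in control. In TCCSUP 1 was called higher and 4 lower, with a sum of 4516 to 5341 CPM in control and 1811 to 2205 CPM with CM-1758. In 253J 0 were called higher and 2 lower (2939 to 3317 and 2440 to 2520 CPM), and in J82 2 and 2 (1836 to 2104 and 4061 to 4551 CPM). Of all tested genes 20.0%, 23.7%, 21.4% and 17.4% were called higher in RT112, TCCSUP, 253J and J82, and 14.7%, 17.2%, 18.1% and 13.3% lower. With 6 markers the counts in 253J and J82 are too small to set apart from these shares. The part of these genes in the FGFR1 result was not tested. The effect on FGFR1 in RT112 differed from those in 253J (adjusted p = 1.34e-06), J82 (adjusted p = 6.03e-04) and TCCSUP (adjusted p = 1.96e-06).

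FGFR2, whose splice forms separate epithelial from mesenchymal cells, was a gene of 253J and RT112. The 253J controls held 166 and 149 CPM and the RT112 controls 79.9 and 72.6 CPM, a log2 difference of 1.05 ± 0.19 (adjusted p = 3.69e-04). The TCCSUP controls held 3.84 and 1.91 CPM, 4.73 lower than RT112 on the log2 scale (adjusted p = 8.74e-10), and the J82 controls had 0 and 0 counts, a count that allows up to 3 counts over the group for counting error alone. With CM-1758 FGFR2 fell in 253J to 19.7 and 22.6 CPM, a log2 fold change of −2.89 ± 0.21 (adjusted p = 1.25e-07), where its mean level per library went from 157 ± 12.5 to 21.2 ± 2.06 CPM. In RT112 it was 59.1 and 61.5 CPM, below both controls, with a log2 fold change of −0.34 ± 0.19 that did not pass the test (adjusted p = 0.167). In TCCSUP it rose to 12.6 and 11.2 CPM, a log2 fold change of 2.05 ± 0.24 (adjusted p = 7.09e-06). J82 libraries gained 20 and 15 counts, at least 10.9-fold higher against a floor of 3 counts over the group (adjusted p = 2.28e-04), but at 0.716 and 0.508 CPM they stayed the lowest of the treated groups.

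FGFR4, a receptor with a main part in liver and bile acid control that is also found in epithelia, was high in the controls of 253J alone, at 130 and 134 CPM. The RT112 controls held 2.35 and 2.57 CPM, 5.74 lower on the log2 scale (adjusted p = 8.98e-11), the TCCSUP controls 5 and 0 counts and the J82 controls 2 and 0 counts. The last pair of lines did not differ (adjusted p = 0.398), and with such counts their order turned when 1 library was left out.

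CM-1758 left FGFR4 between 5.85 and 53.4 CPM in the 8 treated libraries. In 253J the treated libraries held 45.7 and 53.4 CPM, below both controls, a log2 fold change of −1.41 ± 0.21 (adjusted p = 4.16e-05). In RT112 they held 28.0 and 26.9 CPM, a log2 fold change of 3.48 ± 0.25 (adjusted p = 7.01e-08). In TCCSUP they held 21.8 and 18.6 CPM, from 582 and 474 counts, and the pooled ratio to control was 208 with an exact 95% counting interval of 88.9 to 643 (adjusted p = 3.68e-09). In J82 they held 7.19 and 5.85 CPM, from 201 and 173 counts, with a pooled ratio of 175 and an interval of 48.2 to 1452 (adjusted p = 7.93e-08). Intervals on pooled counts cover counting error only. The control counts of both lines come from 1 library each, and the fitted log2 fold change went from 7.63 to 6.64 without TCCSUP control replicate 2 and 12.11 without replicate 1, and from 7.29 to 6.34 without J82 control replicate 3 and 10.48 without replicate 1, with the call kept. The effect differed between 253J and each other line, by 4.89 on the log2 scale from RT112 and by fitted values above that from J82 and TCCSUP (adjusted p at most 9.65e-08). The fitted values depend on the prior count where control counts are near 0.

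TACC3 was lower with CM-1758 in both libraries of every line. Its controls held 295 and 281 CPM in RT112, 106 and 78.1 CPM in J82, 57.4 and 55.3 CPM in 253J and 31.3 and 38.9 CPM in TCCSUP. RT112 exceeded J82 by 1.64 ± 0.24 on the log2 scale (adjusted p = 3.43e-05), whereas the neighbours in the order below it, J82 and 253J (adjusted p = 0.0206) and 253J and TCCSUP (adjusted p = 0.0265), were not called apart, although J82 and TCCSUP were (1.39 ± 0.24, adjusted p = 2.29e-04). The treated libraries held 404 and 329 counts in 253J (a mean of 13.5 ± 3.46 CPM), 51.0 and 28.1 CPM in J82, 178 and 160 CPM in RT112 and 10.7 and 12.7 CPM in TCCSUP, and in no line did they overlap with the controls.

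The fall of TACC3 was called in 253J, at −2.06 ± 0.25 on the log2 scale (adjusted p = 8.22e-06), in TCCSUP at −1.58 ± 0.25 (adjusted p = 1.03e-04) and in J82 at −1.22 ± 0.24 (adjusted p = 8.77e-04). In RT112 the change was −0.77 ± 0.24 and missed the threshold (adjusted p = 0.0150). It passed in DESeq2 on RT112 alone (adjusted p = 3.16e-09) and in edgeR on RT112 alone (adjusted p = 4.50e-04). A fit with a replicate block, which left 3 residual degrees of freedom, also called it (adjusted p = 4.41e-04). It missed the threshold under RLE normalization (adjusted p = 0.0269), library size alone (adjusted p = 0.0527) and DESeq2 on all lines (adjusted p = 0.0197). With at least 10 counts in every library it was missed too (adjusted p = 0.0291). Leaving out 1 RT112 library gave log2 fold changes from −0.85 to −0.69. The J82 call was lost in edgeR on J82 alone (adjusted p = 0.0146) and without the library of CM-1758 replicate 3, where the log2 fold change was −0.85 (adjusted p = 0.0113). The effect in RT112 differed from that in 253J by 1.29 on the log2 scale (adjusted p = 9.67e-03) and was not shown to differ from J82 (0.45 ± 0.34, adjusted p = 0.394) or TCCSUP (0.82 ± 0.34, adjusted p = 0.0925).

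**Figure D2:**
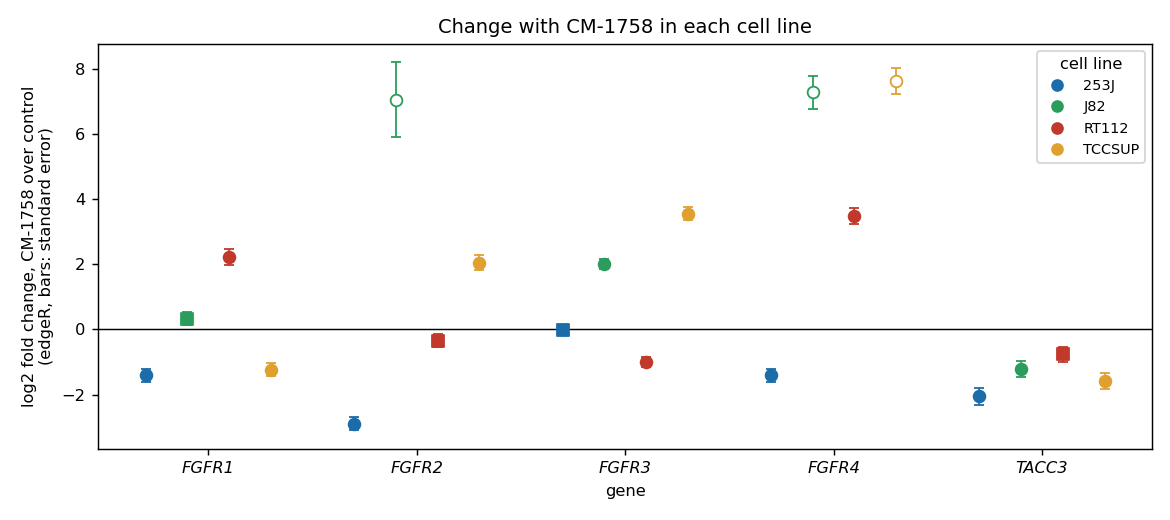
Log2 fold change of CM-1758 over control (vertical axis) of the 5 genes (horizontal axis) in the 4 cell lines (colours), with bars for the standard error, circles for changes that were called and squares for those that were not. Open circles have 5 or fewer control counts in all and their height depends on the prior count. FGFR1 to FGFR4 each have lines on both sides of 0, while TACC3 runs from −2.06 in 253J to −0.77 in RT112.

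By line, 4 members were called lower in 253J (FGFR1, FGFR2, FGFR4 and TACC3) and 0 higher, where 18.1% of tested genes were called lower and 21.4% higher. In J82, 3 were called higher (FGFR2, FGFR3 and FGFR4) and 1 lower (TACC3), against 17.4% and 13.3% of tested genes. In RT112, 2 were called higher (FGFR1 and FGFR4) and 1 lower (FGFR3), against 20.0% and 14.7%. In TCCSUP, 3 were called higher (FGFR2, FGFR3 and FGFR4) and 2 lower (FGFR1 and TACC3), against 23.7% and 17.2%. The effect of CM-1758 differed between lines for the 4 receptors, with adjusted p from 9.61e-09 for FGFR4 to 1.30e-06 for FGFR1, where 36.6% of tested genes passed, and not for TACC3 (adjusted p = 0.0268). TACC3 passed that test in DESeq2 on all lines (adjusted p = 6.73e-03) and in a fit with a replicate block (adjusted p = 1.20e-03). It did not pass under RLE normalization (adjusted p = 0.0230), library size alone (adjusted p = 0.0661) or with at least 10 counts in every library (adjusted p = 0.0147). It also passed without J82 CM-1758 replicate 1 or 3, but not without 253J CM-1758 replicate 3, among others. In the contrasts of RT112 with another line, 19.2% of tested genes passed for 253J, 12.7% for J82 and 17.3% for TCCSUP. The controls of the lines differed for 5 of 5 members (adjusted p from 1.17e-13 for FGFR3 to 6.59e-08 for TACC3), where 69.9% of tested genes differed. Between control lines the share of tested genes called was 42.3% for 253J and J82, 43.8% for 253J and RT112, 41.7% for 253J and TCCSUP, 41.9% for J82 and RT112, 36.5% for J82 and TCCSUP and 41.0% for RT112 and TCCSUP.

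For 4 of 5 members the call in the line with the highest control mean was a fall, FGFR1 in TCCSUP, FGFR2 and FGFR4 in 253J and FGFR3 in RT112. Of the 14208 tested genes with a mean log2 CPM above 0, 33.2% were called lower in the line where their control was highest, and of the 3135 of these whose control means spanned at least as much as those of TACC3, 37.4%. The range of the line means narrowed with CM-1758 from 10.30 to 2.91 on the log2 CPM scale for FGFR4, from 11.06 to 6.48 for FGFR2, from 8.67 to 5.58 for FGFR3 and from 6.60 to 4.27 for FGFR1, and widened from 3.04 to 3.85 for TACC3. The control ranges of FGFR4 and FGFR2 end at J82 libraries with 2 and 0 counts and with 0 and 0 counts, so their size depends on the prior count of 2. Narrowing was common among genes that varied this much between lines, at 90.3% of the 3135, so that 4 of 5 members is near the background.

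Set against exon length, the receptors made up a different mixture in each line. Levels between genes are compared here as CPM per kb of the union of exons in GENCODE release 29, with lengths of 6518 bases for FGFR1, 6704 for FGFR2, 4460 for FGFR3, 3196 for FGFR4 and 2837 for TACC3, and a transcript that uses fewer of these exons is understated. In the RT112 controls FGFR3 was 93.6% ± 0.187 (SD, n = 2) of the summed receptor level, at 183 ± 3.44 of 196 ± 4.06 CPM per kb. The TCCSUP controls were 97.3% ± 0.240 FGFR1 and the J82 controls 89.0% ± 1.97 FGFR1 with 10.9% ± 2.03 FGFR3. The 253J controls held 44.8% ± 1.46 FGFR4, 27.7% ± 0.0341 FGFR1 and 25.5% ± 1.76 FGFR2.

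With CM-1758 the mixtures became more even in RT112, TCCSUP and J82. In TCCSUP FGFR1 was 50.5% ± 2.34, FGFR4 23.4% ± 1.86 and FGFR3 19.5% ± 0.118, in a sum that went from 32.9 ± 1.54 to 27.0 ± 0.817 CPM per kb. In J82 FGFR1 was 68.3% ± 4.57 and FGFR3 26.8% ± 4.31, in a sum of 26.8 ± 6.82 CPM per kb in control and 43.8 ± 8.87 with CM-1758. In RT112 FGFR3 was still 82.6% ± 1.67, with FGFR2 at 8.19% ± 1.02 and FGFR4 at 7.81% ± 0.530, in a sum that went from 196 to 110 ± 10.7 CPM per kb. The 253J sum went from 92.0 ± 0.938 to 30.1 ± 1.66 CPM per kb, with FGFR4 at 51.4% ± 2.87 and FGFR2 at 10.5% ± 0.445. These shares are given as a description without a test.

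The ratio of FGFR3 to TACC3 per kb separated RT112 from the other controls. It was 1.79 and 1.83 in the RT112 controls, against 0.0863 and 0.106 in 253J, 0.0803 and 0.0989 in J82 and 0.0321 and 0.0389 in TCCSUP. With CM-1758 it was 1.57 and 1.48 in RT112, where both genes were lower, and rose to 0.331 and 0.487 in 253J, 0.663 and 1.13 in J82 and 1.43 and 1.15 in TCCSUP. In 253J the higher ratio came with a lower TACC3 level and an FGFR3 level within its control range, and in J82 and TCCSUP with FGFR3 higher and TACC3 lower. RT112 had both the highest FGFR3 and the highest TACC3 level among the control lines, at 183 ± 3.44 and 101 ± 3.41 CPM per kb. How much of either came from fused transcripts cannot be read from counts per gene.

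The other genes around FGFR3 and TACC3 were looked at as neighbours. In RefSeq the protein-coding order on this stretch of chromosome 4 is FAM53A, SLBP, TMEM129, TACC3, FGFR3, LETM1 and NSD2. TMEM129, a ubiquitin ligase gene on the strand opposite to TACC3 that overlaps its start, fell in each line, with log2 fold changes of −1.90 in RT112, −1.49 in 253J, −1.38 in J82 and −1.21 in TCCSUP (adjusted p at most 6.62e-05). The libraries were made with a stranded kit, but the strand setting of the counting is not given in the sources used here, so reads of TMEM129 and TACC3 may not be fully separated. NSD2, a histone methyltransferase, fell too, by 1.76 in 253J, 1.25 in TCCSUP, 1.14 in J82 and 0.63 in RT112 (adjusted p at most 7.11e-03). LETM1, a mitochondrial cation exchanger next to FGFR3, was called lower in 253J (−1.01), RT112 (−0.79, from 177 ± 13.4 to 102 ± 7.53 CPM) and TCCSUP (−0.46), with −0.38 in J82 (adjusted p = 0.0197). SLBP, which binds the stem loop of histone mRNA, rose in TCCSUP by 1.15 and had −0.64 in 253J, 0.08 in J82 and −0.25 in RT112, none of them called. FAM53A was called in no line, with values from −1.01 in J82 to 0.52 in TCCSUP. Of these 5 genes 3, 2, 3 and 3 were called lower in 253J, J82, RT112 and TCCSUP, where 18.1%, 13.3%, 14.7% and 17.2% of tested genes were, with medians of −1.01, −1.01, −0.79 and −0.46 on the log2 scale beside 0.10, 0.05, 0.12 and 0.20 over all tested genes.

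Among the 6 relatives and partners of TACC3, the spindle genes AURKA, GTSE1 and CKAP5 fell in 253J, J82 and TCCSUP. AURKA, the kinase that places TACC3 on the spindle, fell by 2.46 (253J), 1.26 (J82) and 2.06 (TCCSUP) on the log2 scale and had −0.35 in RT112 (adjusted p = 0.239). GTSE1, a microtubule-bound protein of the same phase, fell by 2.95, 1.97 and 2.87 in these lines and had −0.79 in RT112 (adjusted p = 0.0256). CKAP5, the microtubule polymerase that TACC3 recruits, fell by 0.54 in 253J, 0.62 in J82 and 1.04 in TCCSUP and had 0.04 in RT112. CLTC, the clathrin heavy chain, was called in no line, with values from −0.24 to 0.14. TACC1 fell in 253J by 0.70 and in TCCSUP by 0.72, with 0.48 in J82 (adjusted p = 0.0271) and 0.29 in RT112. TACC2 rose in TCCSUP by 1.52, from 5.73 ± 0.775 to 16.4 ± 0.0106 CPM, and had −0.88 in 253J (adjusted p = 0.0128), −0.29 in J82 and 0.69 in RT112 (adjusted p = 0.0290). The list thus had 4, 3, 0 and 4 of 6 genes called lower in 253J, J82, RT112 and TCCSUP, and 1 called higher, TACC2 in TCCSUP, with medians of −0.79, −0.45, 0.09 and −0.88. Over all tested genes the share called lower was 18.1%, 13.3%, 14.7% and 17.2%, and the median was 0.10, 0.05, 0.12 and 0.20.

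The 18 mitotic genes of the list were lower in the lines where TACC3 was called lower. In 253J and TCCSUP 18 of 18 were called lower, in J82 16 of 18 and in RT112 2 of 18, and in each line 0 were called higher, where 13.3% to 18.1% of tested genes were called lower. Their median log2 fold change was −2.50 in 253J, −2.34 in TCCSUP, −1.17 in J82 and −0.34 in RT112, the order in which TACC3 also ranked. The kinesin gene KIF20A fell by 3.63 in 253J, from 152 ± 11.5 to 12.3 ± 3.04 CPM, by 4.04 in TCCSUP and by 1.49 in RT112. MYBL2, a transcription factor of dividing cells, fell by 2.66 in J82, from 187 ± 8.33 to 29.6 ± 12.4 CPM, and by 1.20 in RT112. KIF20A and MYBL2 were the members of the list called in RT112, while TACC3 there stood at −0.77. Further large falls were those of CENPF in 253J (3.17), FOXM1 in J82 (2.33) and CCNB2 in TCCSUP (3.41).

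**Figure D3:**
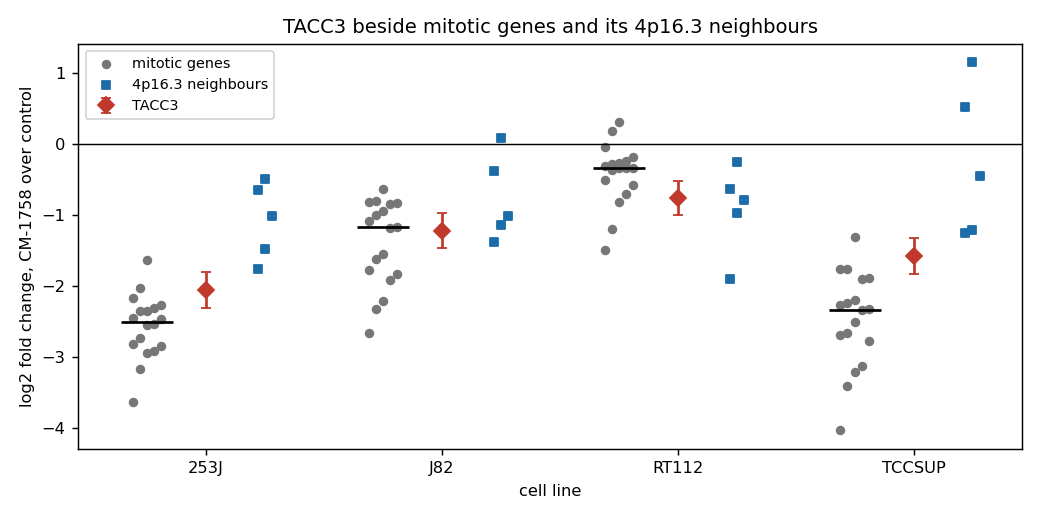
Log2 fold change of CM-1758 over control (vertical axis) in each cell line (horizontal axis) for the 18 mitotic genes (grey points, bar at the median), TACC3 (red diamond with its standard error) and the 5 genes around TACC3 and FGFR3 (blue squares). Medians of the mitotic genes run from −2.50 in 253J to −0.34 in RT112.

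Of the ligands, FGF2 was the one with high counts. It was at 398 ± 12.8 CPM in the TCCSUP controls and fell there by 2.55 on the log2 scale to 67.8 ± 11.0 CPM (adjusted p = 2.79e-07), and FGF1 fell with it by 3.13, from 23.1 ± 0.401 to 2.64 ± 0.880 CPM. In RT112 FGF2 had 0 and 0 counts in control and 72 and 45 with CM-1758 (adjusted p = 1.11e-06). In 253J FGF1 rose by 1.93 to 1.22 ± 0.396 CPM and FGF11, an intracellular homologous factor rather than a secreted ligand, fell by 1.74 from 5.31 ± 0.473 CPM. FGF12, of the same intracellular group, rose by 2.51 in RT112, where a control library had 11 counts and the other 0, and went from 0 and 0 to 11 and 9 counts in TCCSUP. Of 22 ligand and homologous factor genes 17 were tested. In 253J, J82, RT112 and TCCSUP 4, 3, 6 and 5 were called higher, beside 21.4%, 17.4%, 20.0% and 23.7% of tested genes. In 253J, J82 and TCCSUP these counts are near that share. Called lower were 1, 0, 0 and 2, where 18.1%, 13.3%, 14.7% and 17.2% of tested genes were. Genes with 0 or few control counts could hardly be called lower, so these counts are not set against that share. Most of those called higher had 0 or few control counts, and with such genes at the lowest fold their counts allow the medians were 0.79, 1.64, 2.21 and 1.71, beside 0.17, 0.10, 0.15 and 0.22 over all tested genes handled likewise. Genes at this bound were 4 of 13, 5 of 14, 8 of 14 and 10 of 16. Over all tested genes they were 2344 of 19522, 2220 of 19333, 2471 of 19771 and 2999 of 20527. Since a gene with 0 or few control counts can hardly fall, the higher medians of the ligands are not read as a result.

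The co-receptors and ligand carriers (15 genes) had 0, 3, 0 and 2 called higher and 4, 1, 3 and 5 called lower in 253J, J82, RT112 and TCCSUP. Tested genes were called higher at 17.4% to 23.7% and lower at 13.3% to 18.1% by line, so that several of these counts are near the background. SDC1, the main syndecan of epithelia, fell in each line, with log2 fold changes of −3.16 in 253J, −2.66 in TCCSUP, −1.73 in RT112 and −0.69 in J82. Its mean in RT112 went from 1249 ± 89.7 to 377 ± 54.1 CPM. SDC2 fell by 2.40 in 253J and 1.86 in TCCSUP. FGFBP1, which releases FGFs from the matrix, rose by 3.32 in J82 and 1.85 in TCCSUP. FLRT3, a membrane protein that binds FGF receptors, rose by 2.12 in J82 and fell by 0.93 in RT112. GPC4, a glypican, rose in TCCSUP from 0.178 ± 0.252 to 3.48 ± 0.313 CPM. Medians of this list were −0.75, 1.05, 0.08 and −0.03 with genes of 0 or few counts at their bound, beside 0.17, 0.10, 0.15 and 0.22 over all tested genes handled likewise. The 253J median is over 11 genes, since 4 were at the floor with and without drug, and over all 15 fitted values it was 0.

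Among the 23 genes that carry the receptor signal, 8, 2, 5 and 2 were called higher and 5, 3, 4 and 5 lower in 253J, J82, RT112 and TCCSUP, with medians of 0.32, −0.13, 0.17 and −0.19 beside 0.10, 0.05, 0.12 and 0.20 over all tested genes. Most of these counts are near the shares of tested genes, 17.4% to 23.7% called higher and 13.3% to 18.1% called lower. The adaptor gene GAB2 rose by 1.27 in 253J, 0.85 in J82 and 2.82 in RT112, there from 2.07 ± 0.677 to 14.7 ± 0.293 CPM. FRS3, a relative of FRS2, rose by 1.34 in 253J and 2.30 in TCCSUP. The ubiquitin ligase gene CBL rose by 1.56 in RT112 and the PI3K regulatory subunit gene PIK3R1 by 0.84 in TCCSUP. PIK3CA, the catalytic subunit of PI3K, fell by 1.21 in TCCSUP, 0.89 in RT112 and 0.85 in J82. AKT1 fell by 1.01 in J82, and SOS2 and HRAS by 1.03 and 0.95 in 253J.

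The 18 feedback inhibitors and targets of the pathway had 5, 11, 8 and 7 called higher and 2, 2, 2 and 1 called lower in 253J, J82, RT112 and TCCSUP, with medians of 0.34, 1.24, 0.93 and 0.87 beside 0.10, 0.05, 0.12 and 0.20 over all tested genes. The share of tested genes called higher was 21.4%, 17.4%, 20.0% and 23.7%, so that the 253J count called higher is near the background. The share called lower was 18.1%, 13.3%, 14.7% and 17.2%. The counts called lower are near it in 253J, J82 and RT112 and below it in TCCSUP. DUSP6, the phosphatase of ERK that is a common readout of FGF signalling, was 200 ± 20.7 CPM in the RT112 controls and fell there by 0.58 on the log2 scale to 134 ± 1.81 CPM (adjusted p = 6.30e-03), as did ETV4, a transcription factor induced by ERK, by 0.69. In TCCSUP DUSP6 rose by 2.45, from 19.3 ± 1.34 to 106 ± 27.8 CPM, and ETV1 by 1.93. DUSP6 also rose in J82 by 1.86, from 7.19 ± 0.0923 to 26.1 ± 1.21 CPM, and in 253J by 1.01, from 86.3 ± 2.63 to 174 ± 6.46 CPM (adjusted p = 7.40e-05), where FGFR1, FGFR2 and FGFR4 fell. In J82 the inhibitor genes SPRY1 and IL17RD rose by 2.73 and 2.70 while SPRY2 fell by 0.64 and FOSL1 by 2.11. In 253J DUSP5 rose by 1.89, to 179 ± 5.20 CPM, and EGR1 by 3.48, while ETV1 fell by 0.74 and SPRY2 by 0.61. EGR1 also rose by 5.51 in RT112, with libraries of 168 and 554 counts that differed from each other, and SPRED3 by 3.44. CCND1 was the gene of the list called lower in TCCSUP, by 1.52 from 270 ± 0.603 CPM.

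Of the splicing regulators that act on FGFR2, ESRP1, which favours its epithelial form, stood at 202 ± 18.2 CPM in the RT112 controls and at most 0.0574 CPM on average in the other lines. It had 0 and 0 counts in the J82 controls and 121 and 100 counts with CM-1758 (adjusted p = 1.28e-06), rose in TCCSUP from 0 and 3 to 22 and 21 counts (adjusted p = 7.85e-04), and had −0.35 on the log2 scale in RT112 (adjusted p = 0.190). In 253J its change, from 0 control counts to a mean of 0.0843 CPM, was not called. ESRP2 was called in no line and stood at 39.2 ± 3.42 CPM in the RT112 controls. PTBP1, a repressor of exon use, fell in each line, by 1.19 in TCCSUP, 0.82 in 253J, 0.79 in RT112 and 0.76 in J82. MBNL1 fell by 1.00 in 253J, 1.11 in J82 and 1.42 in TCCSUP and had −0.50 in RT112 (adjusted p = 0.0136), and RBFOX2 was called in no line, with values from −0.27 to −0.11. This list had 2, 2, 1 and 2 of 5 called lower and 0, 1, 0 and 1 higher in 253J, J82, RT112 and TCCSUP, with medians of −0.30, −0.19, −0.35 and −0.78. Beside it, 18.1%, 13.3%, 14.7% and 17.2% of tested genes were called lower and 21.4%, 17.4%, 20.0% and 23.7% higher, with medians of 0.10, 0.05, 0.12 and 0.20. The splice forms of FGFR2 cannot be read from counts per gene.

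The genes whose log2 CPM followed each member most closely over the 16 libraries are given with Pearson's r, which across 4 lines mostly follows the level of the line. FGFR1 was followed by CDH2, the N-cadherin of mesenchymal cells (r = 0.993), ZFHX4 (0.990) and CNN3 (0.984). FGFR2 was followed by MFNG (0.984), EFNB1 (0.976) and GRAMD4 (0.970), FGFR3 by THEM6 (0.990), PRKX (0.975) and PCDH1 (0.961), FGFR4 by RASAL1 (0.982), PPP4R4 (0.981) and RETREG1 (0.976), and TACC3 by PDS5A (0.962), SCAF8 (0.961) and CPSF1 (0.957). With the mean of each line taken away, which leaves the response to CM-1758 and the spread between replicates, the closest genes were NXPE3 (0.977), ADCY9 (0.974) and VCAN (0.968) for FGFR1, and RNF165 (0.960), JAG1 (0.953) and TMEM187 (0.951) for FGFR2. For FGFR3 they were DAB2IP (0.970), IGFBP2 (0.967) and ADCY1 (0.966), and for FGFR4 PPP4R4 (0.978), FAM155B (0.977) and KANK3 (0.970). For TACC3 they were its neighbour NSD2 (0.985), ATF6B (0.983) and TMEM164 (0.983). Between members, r was −0.86 for FGFR1 and FGFR3 and 0.68 for FGFR3 and TACC3. With the line means taken away it was −0.55 for FGFR3 and TACC3 and 0.78 for FGFR3 and FGFR4.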

How the data were processed

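The authors deposited 1 table of raw counts, whole reads per gene symbol in 16 libraries of stranded, ribosome-depleted total RNA. The submitters' processing notes name HISAT2, StringTie and GRCh37, and the strand setting of the counting is not given in the sources used here. Columns were matched to samples by title. Total counts were 22506431 to 32537104 per library.

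Low genes were removed by filterByExpr on the 8 groups. TMM normalization and a quasi-likelihood fit followed in edgeR 4.0.16 (R 4.3.3), with 1 mean per group (8 residual degrees of freedom, common biological coefficient of variation 0.153). Contrasts were CM-1758 against control in each line, lines against each other in control, and their interactions. The limit of 0.01 on the adjusted p is that of the study. SE is the log2 fold change over the square root of F. The fit was tested on simulated counts, where no changed gene had control counts near the floor, so rises from such counts were not covered. The floor is 3 counts, and intervals on pooled counts are exact at 95%.

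Members, lists and markers were chosen with earlier results of these data known. Named genes were the members, the lists of TACC3 partners, neighbours and splicing regulators in full, up to 2 called genes per direction, list and line with the largest change (mean log2 CPM above 0, groups not overlapping), and the 3 genes most correlated with each member. Some of the genes that this rule gives are not reported here. Log2 CPM used a prior count of 2. Exon lengths came from GENCODE release 29 and promoters from RefSeq. Alternatives were other normalizations, filters, p limits, DESeq2 1.42.0, single-line fits, a replicate block and leaving out each library. Replicate numbers were not taken as pairs, since the deviations of equal numbers correlated at 0.0173 to 0.218 with under 3 pairs per line.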

Additional observations from a re-analysis of the deposited data

Results flagged for a closer look

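The effect of CM-1758 differed between the cell lines for the 4 receptor genes, in a test of the difference itself (F test of 3 interaction contrasts in edgeR, Benjamini-Hochberg over all tested genes, 2 libraries per group). The adjusted p was 1.30e-06 for FGFR1, which rose in RT112 and fell in 253J and TCCSUP. It was 1.57e-07 for FGFR2, which fell in 253J and rose in J82 and TCCSUP. It was 1.55e-08 for FGFR3, which fell in RT112 and rose in J82 and TCCSUP. It was 9.61e-09 for FGFR4, which fell in 253J and rose in the other lines. In each of these lines both treated libraries lay on the same side of both controls. Of all tested genes 36.6% passed this test.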

How the results depend on the processing

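With at least 10 counts in every library FGFR2 and FGFR4 dropped out, so fewer members were left to call: 2 in 253J, 2 in J82, 3 in TCCSUP, 2 for the difference between lines and 3 between control lines. The sign of FGFR3 in 253J turned to 0.027 with RLE normalization, 0.25 with library size alone, 0.064 with that filter and 0.028 with DESeq2 on all lines, and ran from −0.13 to 0.11 when 1 library was left out. Leaving out 1 library, FGFR1 in control ran from −0.17 to 0.40 for 253J minus J82, and FGFR4 from −4.48 to 3.19 for J82 minus TCCSUP; neither was called. Leaving out 1 library gave 3 or 4 members called in J82, with 3 without CM-1758 replicate 3, and 4 or 5 for the difference between lines. FGFR3 in control, 253J minus J82, lost its call at −0.49 with RLE, −0.48 with library size alone and −0.48 with the strict filter. It also lost the call when any 1 control library of these lines was left out, with values from −0.71 to −0.47. With the replicate block TACC3 in RT112 was called (−0.77), and the calls over all genes went from 8417 to 5925 in 253J, 6535 to 7023 in J82, 7397 to 7719 in RT112 and 8713 to 8812 in TCCSUP. Control and treated libraries shared 1 replicate number in 253J and 2 in each other line. The block fit left 3 residual degrees of freedom, so its calls in 253J rest on 1 matched pair. Over all alternatives 586 values of single genes kept direction and call, 7 turned sign, 12 gained a call and 9 lost one, and 98 counts stayed within the limit of 1.5 times while 5 did not. Where a library was left out, the lone one was assumed to vary like the other groups. The cause of the shifts under other normalizations was not tested. Library size alone and DESeq2 were the alternatives run for the lists.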
